A study of Mus musculus with 32 samples.

Results

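Liver and epididymal white adipose tissue (eWAT) of mice that received neither corticosterone nor extra protein were compared, to give the baseline identity of both tissues. The 8 libraries concerned, 4 of liver and 4 of eWAT, were chosen by their labels from the 32 in the series. They came from male mice of strain C57BL/6 by the labels (C57BL/6J in the study's methods), 10 weeks old, which were fasted before tissue was taken. These mice ate the normal protein diet (NPD, 20% of kcal from protein) and for 7 days drank the ethanol vehicle (Veh) without corticosterone (Cort). By the study's methods, they were already on the NPD before these 7 days. The other 24 libraries came from mice on the high protein diet (HPD, 60% of kcal), from mice given Cort, or both, again with 4 of each tissue in each group. Each library was made from a piece of whole tissue, so all cell types present contributed RNA, and fewer cells of a type cannot be told apart from less RNA per cell. The labels do not say that a liver and an eWAT library with the same number came from 1 mouse.

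The hepatocyte, the main cell of the liver, makes most plasma proteins, clears ammonia through the urea cycle, makes glucose and ketone bodies during fasting, and turns cholesterol into bile acids. The white adipocyte stores triglyceride in a single large droplet, takes up fatty acids from circulating lipoproteins through lipoprotein lipase, releases them under adrenergic control and secretes hormones such as leptin and adiponectin. Many steps of metabolism are carried out in both cells but by different members of one gene family.

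Library totals were 13034283 to 16468871 counts in eWAT and 8933307 to 12750233 in liver. The first principal component, which held 91.5% of the variance of log2 CPM (counts scaled to a common library total), separated the tissues, and the second held 1.76%. Liver replicate 4 lay at -47.2 on the second component against -7.49 to 37.2 for the other liver libraries. Of the 4 livers it also had the highest share of counts from the mitochondrial genome, 21.8% against 15.6% to 17.4% in the other 3. Without it, the number of genes called higher in liver or in eWAT moved by less than 1.5 times. All CPM below were scaled with TMM factors, which were 1.37 to 1.44 in eWAT and 0.632 to 0.739 in liver. QuantSeq counts 1 fragment from the 3′ end of a transcript, so a level does not grow with transcript length.

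Marker genes of both cells were high in the tissue that the labels name. These lists were chosen with earlier results of these data known, so this is not an independent check of the labels. The 14 adipocyte markers summed to 27075 to 36145 CPM in eWAT and 77.9 to 153 CPM in liver. The 16 hepatocyte markers summed to 151321 to 208798 CPM in liver and 661 to 1565 CPM in eWAT, and in eWAT most of this was Cyp2e1, at 1094 CPM. Of the defining hepatocyte genes, fibrinogen gamma (Fgg) and the bile acid carrier Slco1b2 had no count in any eWAT library.

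The promoters of 4 genes with large differences are shown, 300 bases each, as RefSeq places them in build GRCm38.p6. They run from 250 bases before to 50 bases after the transcription start. Alb encodes albumin and lies at chr5:90460620-90460919. Apoa1 encodes the main protein of high-density lipoprotein and lies at chr9:46228380-46228679. Fabp1 encodes the liver fatty acid binding protein and lies at chr6:71199629-71199928. Adipoq encodes adiponectin and lies at chr16:23146286-23146585. All 4 are on the plus strand, and capitals mark a match to the HNF1 motif GTTAATNAT or the HNF4 motif CAAAGTCCA on either strand. HNF1 and HNF4 are transcription factors of the hepatocyte.
Alb: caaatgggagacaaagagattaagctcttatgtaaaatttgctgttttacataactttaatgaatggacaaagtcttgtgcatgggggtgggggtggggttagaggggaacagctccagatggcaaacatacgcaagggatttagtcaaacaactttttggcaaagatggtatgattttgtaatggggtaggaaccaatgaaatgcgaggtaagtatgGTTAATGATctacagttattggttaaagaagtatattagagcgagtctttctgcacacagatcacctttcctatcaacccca
Apoa1: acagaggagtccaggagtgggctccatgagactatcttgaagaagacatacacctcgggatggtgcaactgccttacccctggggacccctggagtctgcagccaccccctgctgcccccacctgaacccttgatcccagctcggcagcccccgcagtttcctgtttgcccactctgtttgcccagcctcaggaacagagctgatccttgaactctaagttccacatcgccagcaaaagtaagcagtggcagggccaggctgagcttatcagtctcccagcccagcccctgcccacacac
Fabp1: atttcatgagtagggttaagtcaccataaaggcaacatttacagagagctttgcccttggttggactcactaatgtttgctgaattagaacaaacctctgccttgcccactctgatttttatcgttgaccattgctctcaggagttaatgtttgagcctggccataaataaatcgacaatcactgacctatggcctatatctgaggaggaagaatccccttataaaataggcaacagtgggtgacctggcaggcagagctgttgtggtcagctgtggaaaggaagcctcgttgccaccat
Adipoq: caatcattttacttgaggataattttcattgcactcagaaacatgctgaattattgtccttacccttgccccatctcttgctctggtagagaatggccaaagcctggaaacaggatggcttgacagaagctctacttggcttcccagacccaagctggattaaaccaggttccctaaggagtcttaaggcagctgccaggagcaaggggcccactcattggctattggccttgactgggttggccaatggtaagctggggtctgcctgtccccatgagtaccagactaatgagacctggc
Of these windows, the one of Alb held an HNF1 match, starting at position -32 from the RefSeq transcription start, and the other 3 held no match to these letters. The GENCODE annotation starts Alb further downstream, at 90460897, so the position holds for the RefSeq start only. Across the 32851 windows of the table, 0.801% held the HNF1 letters and 0.475% the HNF4 letters. Of the 1824 genes with a window that were over 2-fold higher in liver, 2.47% held HNF1 and 1.64% HNF4, against 0.358% and 0.447% of the 2235 over 2-fold higher in eWAT. Of the 10143 genes tested that had a window, 0.7% held HNF1 and 0.651% HNF4. Of the 21 plasma protein genes with a window, 3 held HNF1 and 0 HNF4, and of the 17 coagulation genes with a window, 2 held HNF1 and 0 HNF4. These shares describe the windows and were not tested.

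The tissues differed in most genes. Of 13443 genes tested, 9450 differed (edgeR's quasi-likelihood test, Benjamini-Hochberg adjusted p under 0.05), which is 70.3% of those tested. Of these, 4505 were higher in liver, 33.5% of genes tested, and 4945 were higher in eWAT, 36.8%. These shares are the background for the counts of every list below. Many lists were drawn up as genes expected in liver or in fat, with earlier results of these data known. A high count in such a list is therefore a description and not a test. A difference of more than 2-fold, tested against that size, was found in 5516 genes, or 41.0%: 2399 (17.8%) higher in liver and 3117 (23.2%) higher in eWAT. In 8882 genes, 66.1%, the 4 liver values and the 4 eWAT values did not overlap. The median absolute log2 difference was 1.14. No gene had a 95% interval of its difference within 0.25 log2 units of 0, so no gene could be called equal in both tissues at that precision. When libraries were scaled to their totals instead of by TMM factors, the median log2 difference of all genes moved from -0.09 to -1.09. The calls were then 2106 higher in liver and 8494 higher in eWAT, 19.9% of calls higher in liver in place of 47.7%. Differences below are therefore relative to the TMM scale, and those that turn with the library totals are named.

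**Figure D1:**
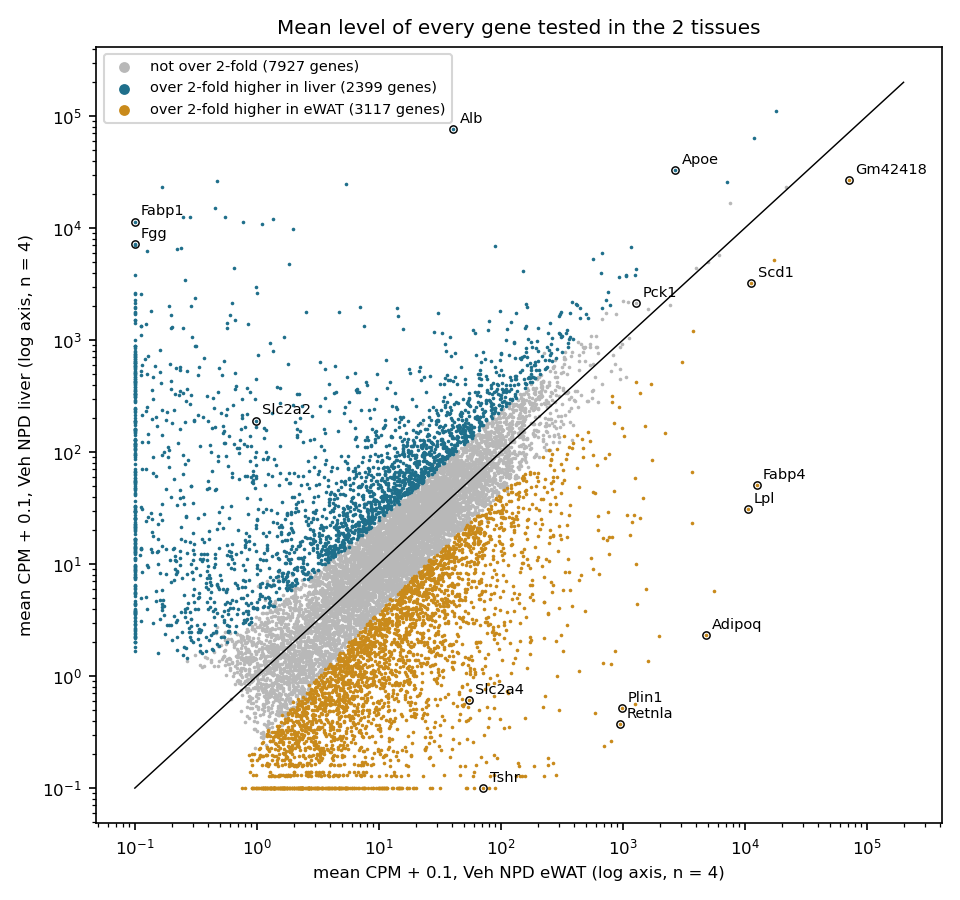
Mean CPM + 0.1 of each gene tested in the 4 Veh NPD eWAT libraries (x axis, log scale) and the 4 Veh NPD liver libraries (y axis, log scale), with genes over 2-fold higher in liver in blue, over 2-fold higher in eWAT in ochre and the rest in grey. The line marks equal levels. Fabp1 and Fgg lie on the left edge, with no count in eWAT, and Tshr on the lower edge, with no count in liver.

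Of the genes tested, 264 had no count in any eWAT library and 234 had none in any liver library. Among the 200 genes with the highest mean level in liver, 25 had no count in any eWAT library. Among the 200 highest in eWAT, 0 had no count in any liver library. Fabp1 had the highest mean level of the former. Its levels in the 4 livers were 11643, 13376, 10875 and 9682 CPM, and all 4 eWAT libraries were at 0. Set against 3 counts per eWAT library (0.147 CPM on average), Fabp1 was at least 77341-fold higher in liver. By the same bound, Fgg was at least 48721-fold higher in liver and Tshr, the thyrotropin receptor, at least 180-fold higher in eWAT.

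A few genes took a large share of each library. Alb (ENSMUSG00000029368, chromosome 5 from 90460897 to 90476602 in GRCm38) held 5.29% ± 0.776 (SD, n = 4) of liver counts and 0.00578% ± 0.00106 (SD, n = 4) of eWAT counts. Apoe, which encodes apolipoprotein E, held 2.29% ± 0.522 of liver counts and 0.379% ± 0.062 of eWAT counts (SD, n = 4). Mup3, a major urinary protein, and the serine protease inhibitor Serpina3k held 1.86% and 1.75% of liver counts, and both belong to families of near-identical genes whose reads cannot be assigned with certainty. The most abundant nuclear protein-coding genes of eWAT were Car3 (carbonic anhydrase 3, 2.47%), Fabp4 (the adipocyte fatty acid binding protein, 1.77%), Scd1 (stearoyl-CoA desaturase, 1.60%) and Lpl (lipoprotein lipase, 1.5%). Gm42418, an RNA gene on chromosome 17 that overlaps ribosomal RNA sequence, held 10.1% ± 1.72 of eWAT and 1.90% ± 0.431 of liver counts (SD, n = 4).

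The mitochondrially encoded genes held 10.5% ± 0.494 of counts in eWAT and 17.7% ± 2.87 in liver (SD, n = 4). The groups did not overlap (exact permutation test, two-sided, p = 0.0286, adjusted over 3 shares 0.0286, the smallest value 4 against 4 allows). The 10 most abundant genes of a library held 25.3% to 28.4% of counts in eWAT and 28.6% to 35.0% in liver, with the same exact p. Without liver replicate 4, the difference of means fell from 3.41 to 1.82 percentage points. Without the mitochondrially encoded genes the difference of means turned, from 3.41 to -0.567 percentage points. By mean share, Gm42418 was among the 10 in both tissues, at 10.1% of eWAT and 1.90% of liver counts. The difference without Gm42418 was not computed. After thinning every library to 8933307 counts, 16136 to 17020 genes had a count in eWAT and 14923 to 15555 in liver, again without overlap and with the same exact p. Of these mitochondrial genes mt-Nd4, a subunit of complex I, was at 15927 to 19826 CPM in eWAT and 87454 to 159058 CPM in liver. The mitochondrial ribosomal RNA mt-Rnr2 was at 21746 ± 2373 CPM in eWAT and 23102 ± 2776 CPM in liver (SD, n = 4), a log2 difference of 0.09 (95% interval -0.33 to 0.50, adjusted p = 0.71 by edgeR). With library totals mt-Rnr2 was called higher in eWAT (-0.92, adjusted p = 2.1e-04 by edgeR).

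Genes of proteins that the liver secretes into plasma were higher in liver throughout the list. All 26 plasma protein genes of the list were higher in liver, all by more than 2-fold, with a median log2 difference of 11.89 against -0.09 for all genes tested. With the members at 3 or fewer counts in every eWAT library set to their bound, that median was 10.97. Alb was at 63397, 66932, 71784 and 101388 CPM in the 4 livers and at 33.9, 37.0, 49.3 and 42.9 CPM in the 4 eWAT libraries. The groups did not overlap, with a log2 difference of 10.86 (SE 0.34, adjusted p = 5.7e-14). Transthyretin (Ttr), the carrier of thyroid hormone and retinol, was at 15066 ± 1518 CPM in liver and 0.351 ± 0.393 CPM in eWAT (SD, n = 4). Ahsg, fetuin-A, was at 12609 ± 880 CPM in liver and 0.452 ± 0.168 CPM in eWAT (SD, n = 4). Transferrin (Trf), the iron carrier of plasma, was well expressed in both, at 6158 to 8344 CPM in liver and 927 to 1549 CPM in eWAT, with a log2 difference of 2.53.

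Of 19 coagulation genes, 17 were higher in liver and 2 in eWAT, with a median log2 difference of 15.48. It was 11.77 with low members at their bound, since 11 of the 19 had 3 or fewer counts in every eWAT library. Fibrinogen beta (Fgb) was at 18403 to 25772 CPM in liver and 0 to 0.270 CPM in eWAT. Fga and plasminogen (Plg) were at 2585 and 2254 CPM in liver with no count in eWAT. The 2 that were higher in eWAT both belong to the tissue factor pathway, which starts clotting outside the plasma: tissue factor itself (F3, log2 difference -2.26) and its inhibitor Tfpi (-1.57). With limma voom F3 did not pass (-1.91, adjusted p = 0.058).

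Of 18 genes for apolipoproteins and lipoprotein assembly, 16 were higher in liver, with a median of 10.08. Apoa1 was at 9667, 12411, 13860 and 12076 CPM in liver and 0.447 to 2.27 CPM in eWAT. Apoa2, the second protein of high-density lipoprotein, was at 11296 ± 1951 CPM in liver and 0.668 ± 0.693 CPM in eWAT (SD, n = 4). Apoe and Apoc1 were detected in both, with log2 differences of 3.61 and 6.29. The 2 members higher in eWAT act on lipoproteins in plasma, Pltp, the phospholipid transfer protein (-1.81), and Angptl4, an inhibitor of lipoprotein lipase (-0.88).

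Complement split between the tissues. Of 25 genes tested, 18 were higher in liver, 5 in eWAT and 2 did not pass. The central component C3 was at 1546 to 1992 CPM in liver and 259 to 437 CPM in eWAT. C9, a pore-forming component, was at 1293 ± 140 CPM in liver and 0.149 ± 0.298 CPM in eWAT (SD, n = 4). Cfd, complement factor D, also known as adipsin, showed the opposite: 8560, 6950, 3158 and 3613 CPM in the eWAT libraries against 2.30 to 11.1 CPM in liver. Its log2 difference was -9.93 (SE 0.66, adjusted p = 7.9e-07). The other 4 members higher in eWAT were C1qb (-0.91), C1qc (-0.42), C2 (-0.76) and properdin, Cfp (-1.22), of which C2 overlapped between groups. Of 21 acute phase genes, 19 were higher in liver and 0 in eWAT, with a median of 11.08 (10.41 with low members at their bound). Haemopexin (Hpx), which binds heme, was at 6562 CPM in liver and 0.122 CPM in eWAT.

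The machinery that folds and exports proteins was also higher in liver. Of 25 genes of protein folding and secretion in the endoplasmic reticulum (ER), 23 were higher in liver and 0 in eWAT, with a median of 1.78. The chaperone Hspa5 was at 2044 ± 577 CPM in liver and 420 ± 55.7 CPM in eWAT (SD, n = 4), and Hsp90b1 at 1167 ± 168 and 301 ± 13.6 CPM. With library totals, 16 of the 25 were higher in liver and 4 in eWAT.

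Genes of nitrogen metabolism were mostly higher in liver. All 24 genes of amino acid catabolism were higher in liver, with a median of 10.54 (9.99 with low members at their bound), and their sum was 16402 to 20390 CPM in liver and 94.4 to 111 CPM in eWAT. Gnmt, glycine N-methyltransferase, was at 3461 ± 586 CPM in liver and 0.159 ± 0.283 CPM in eWAT (SD, n = 4). Tdo2, which opens the ring of tryptophan, was at 2978 ± 610 and 0.889 ± 0.424 CPM. Bhmt, which remethylates homocysteine with betaine, was at 1795 CPM in liver with no count in eWAT.

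Of 12 urea cycle and ammonia genes tested, 10 were higher in liver and 1 in eWAT. Cps1, the first enzyme of the cycle, was at 1017, 892, 1122 and 1214 CPM in liver and 0 to 0.726 CPM in eWAT. Otc, the next enzyme, was at 650 to 838 CPM in liver, with no count in eWAT, a difference of at least 4907-fold. Glutamine synthetase (Glul) did not pass: 853, 1323, 695 and 1033 CPM in eWAT overlapped with 941, 932, 968 and 873 CPM in liver. Its log2 difference was -0.07 (95% interval -0.46 to 0.32, adjusted p = 0.74 by edgeR). With library totals Glul was called higher in eWAT (-1.08, adjusted p = 7.9e-05 by edgeR).

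Branched-chain amino acid catabolism was mixed. Of 21 genes, 11 were higher in liver, 4 in eWAT and 6 did not pass, with a median of 0.35. The 4 in eWAT were both transaminases of the first step, the kinase that restrains the second step and Mccc1. Bcat2, the mitochondrial transaminase, was at 24.7 to 36.9 CPM in eWAT and 3.44 to 5.71 CPM in liver. Bckdk, the kinase, was at 26.7 to 37.4 CPM in eWAT and 6.25 to 9.87 CPM in liver. Bcat1, the cytosolic transaminase, was at 3.09 CPM in eWAT with no count in liver, and Mccc1, of leucine breakdown, had a log2 difference of -0.70. Hibadh, of valine breakdown, was higher in liver, at 463 ± 59.3 CPM in liver and 185 ± 39.9 CPM in eWAT (SD, n = 4). With library totals the list turned, to 4 higher in liver and 13 in eWAT and a median of -0.65.

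Glucose production leaned to liver. Of 10 gluconeogenesis genes tested, 8 were higher in liver and 2 in eWAT. Glucose-6-phosphatase (G6pc), which releases free glucose, was at 486, 714, 586 and 460 CPM in liver and 0 to 0.377 CPM in eWAT. Fbp1, fructose-1,6-bisphosphatase, was at 645 CPM in liver and 0.441 CPM in eWAT. Pck1, the cytosolic phosphoenolpyruvate carboxykinase, was abundant in both tissues: 1982, 2495, 1745 and 2267 CPM in liver and 1365, 1645, 1066 and 1076 CPM in eWAT. The groups did not overlap, with a log2 difference of 0.72 (SE 0.19, adjusted p = 0.0025), and with library totals the difference turned to -0.29. Pyruvate carboxylase (Pcx) and mitochondrial Pck2 were higher in eWAT, by log2 differences of -1.17 and -2.34.

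All 15 bile acid genes tested were higher in liver, 9 of the list's 16 genes having 3 or fewer counts in every eWAT library. The uptake carriers Slco1b2 and Slc10a1 were at 2652 ± 198 and 447 ± 128 CPM in liver (SD, n = 4) with no count in eWAT. Of 21 drug-metabolizing genes tested, 19 were higher in liver and 0 in eWAT. Ugt2b1, a glucuronosyltransferase, was at 1280 ± 92.1 CPM in liver and 0.0993 ± 0.199 CPM in eWAT (SD, n = 4). Cyp2e1, which oxidizes ethanol and acetone, was abundant in both: 1743, 2370, 2425 and 2242 CPM in liver and 1312, 1522, 928 and 615 CPM in eWAT. Its log2 difference was 1.0 (SE 0.24, adjusted p = 0.0015) and fell to 0.00 with library totals.

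**Figure D2:**
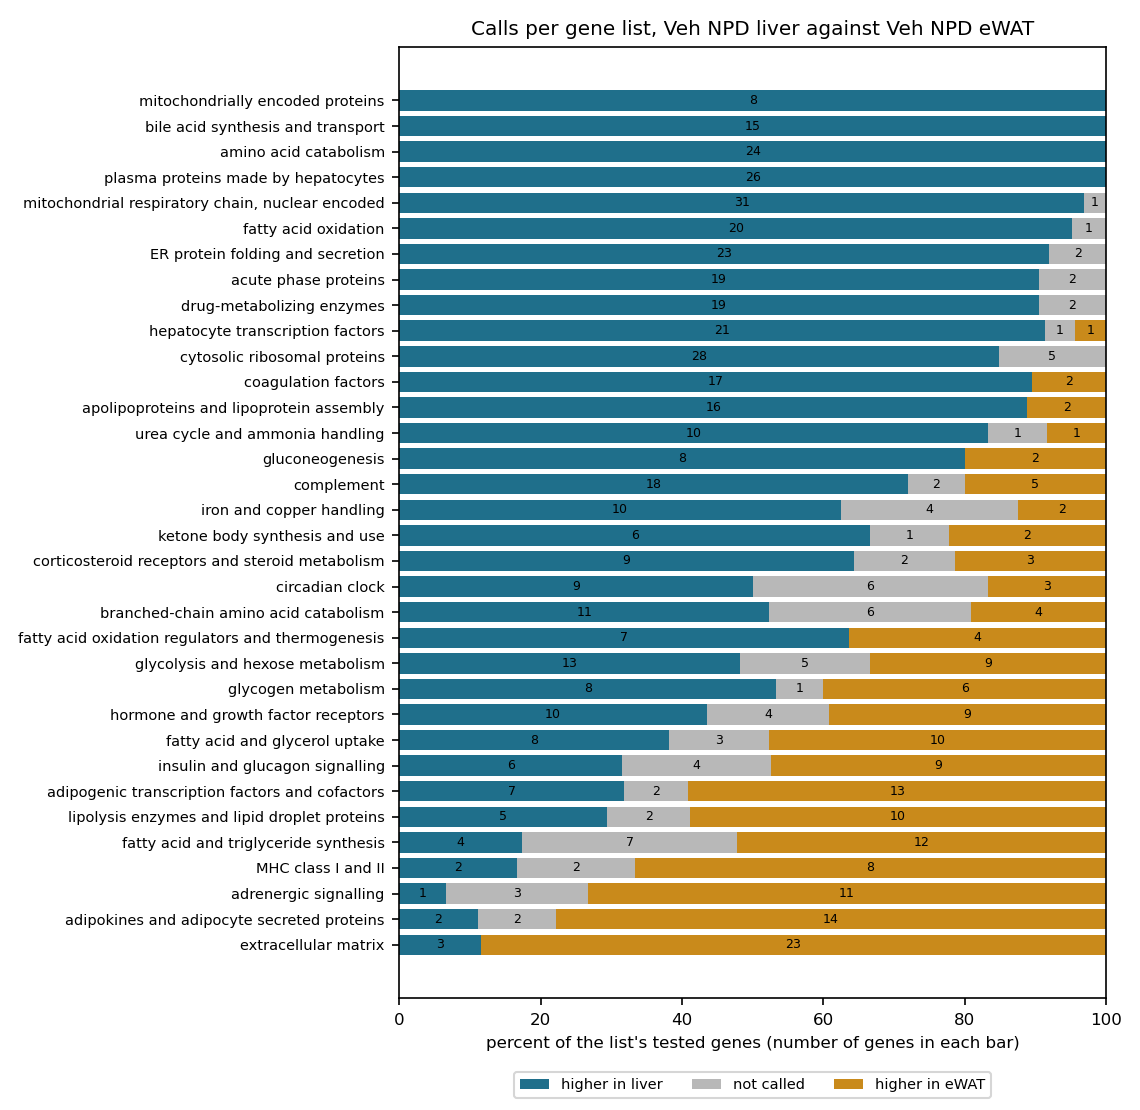
Percent of each list's tested genes called higher in liver (blue), not called (grey) and higher in eWAT (ochre), with the number of genes written in each bar. Lists run from those with all genes higher in liver (top, 26 of 26 plasma proteins) to those mostly higher in eWAT (bottom, 23 of 26 extracellular matrix genes).

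Hormones and proteins secreted by adipocytes were mostly higher in eWAT. Of 18 genes tested, 14 were higher in eWAT, 2 in liver and 2 did not pass, with a median of -6.21 (-3.99 with low members at their bound). Adipoq (ENSMUSG00000022878, chromosome 16 from 23146536 to 23158028) was at 6053, 4849, 3891 and 4376 CPM in eWAT and 5.09, 2.01, 0.510 and 1.24 CPM in liver. The log2 difference was -11.05 (SE 0.54, adjusted p = 5.8e-09). Resistin (Retn) was at 1376 to 1826 CPM in eWAT and 0.128 to 2.55 CPM in liver. Leptin (Lep) ranged widely among the 4 eWAT libraries, at 319, 438, 560 and 1059 CPM, with 0 to 0.617 CPM in liver. The 2 members higher in liver were chemerin (Rarres2, 1.38) and angiotensinogen (Agt, 1.29), both of which the liver is known to secrete.

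Lipid droplet and lipolysis genes divided by family member. Of 17 genes, 10 were higher in eWAT, 5 in liver and 2 did not pass. In eWAT stood the droplet coat proteins Plin1, at 847 to 1044 CPM against 0.128 to 0.579 CPM in liver, and Plin4, at 1562 ± 50.6 against 5.86 ± 3.15 CPM (SD, n = 4). The lipases of the adipocyte, Pnpla2 (adipose triglyceride lipase) and Mgll (monoglyceride lipase), had log2 differences of -4.38 and -2.04. In liver stood Plin2, at 556 to 1285 CPM against 160 to 235 CPM in eWAT, and Plin5, at 147 ± 36.6 against 3.53 ± 0.710 CPM (SD, n = 4). Cideb, Hsd17b13 and G0s2, an inhibitor of Pnpla2, were also higher in liver, the last of them with overlapping groups.

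Genes for uptake of fatty acids and glycerol were mixed. Of 21 tested, 10 were higher in eWAT, 8 in liver and 3 not called, with a median of 0.12, where 36.8% of all genes tested were higher in eWAT and 33.5% in liver. With library totals, 14 were higher in eWAT and 7 in liver, and the median turned to -0.88. Lpl was at 10196, 10175, 11165 and 10789 CPM in eWAT and 37.1, 27.3, 38.1 and 21 CPM in liver, a log2 difference of -8.42 (SE 0.28, adjusted p = 7.8e-14). The fatty acid translocase Cd36 was at 1468 ± 122 CPM in eWAT and 39.0 ± 14.6 CPM in liver (SD, n = 4). Caveolin-1 (Cav1), of the membrane pits that are dense on adipocytes, was at 1296 CPM in eWAT and 4.28 CPM in liver. In liver, the acyl-CoA synthetase Acsl5 (3.82) and the intestinal form Fabp2 (9.34) were higher. Lrp1 was called higher in liver by a log2 difference of 0.33, with overlapping groups, and turned to -0.67 with library totals.

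Fatty acid and triglyceride synthesis leaned to eWAT. Of 23 genes, 12 were higher in eWAT, 4 in liver and 7 did not pass, and their sum was 17029 to 20253 CPM in eWAT and 5673 to 10008 CPM in liver. Scd1 was at 12155, 11877, 11485 and 9804 CPM in eWAT and 2143, 1832, 4264 and 4719 CPM in liver. Fasn, fatty acid synthase, was at 1776 to 2513 CPM in eWAT and 88.9 to 210 CPM in liver, a log2 difference of -3.90 (SE 0.25, adjusted p = 6.7e-10). The 4 genes higher in liver were the elongases Elovl5 and Elovl3, the lipin Lpin2 and the carbohydrate-responsive factor Mlxipl. Elovl3, better known from brown fat and skin, was at 720, 677, 737 and 572 CPM in liver. In eWAT it had 2 counts in 1 library and none in the other 3.

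Fatty acid oxidation was higher in liver, with 20 of 21 genes tested called and 0 higher in eWAT, at a median of 1.73. Acaa2, of the last step of the cycle, was at 1242 ± 133 CPM in liver and 112 ± 7.59 CPM in eWAT (SD, n = 4). With library totals, 13 of these genes were higher in liver and 2 in eWAT. Of 9 genes of ketone body synthesis and use, 6 were higher in liver and 2 in eWAT. Oxct1, which hepatocytes lack and which other tissues need to burn ketones, was at 305 to 390 CPM in eWAT and 6.63 to 9.72 CPM in liver. Aacs, which uses acetoacetate for lipid synthesis, was also higher in eWAT (-1.81).

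Energy and protein synthesis machinery was higher in liver on the TMM scale. Of 32 nuclear genes of the mitochondrial respiratory chain, 31 were higher in liver and 0 in eWAT, with a median of 1.15. Cox7c was at 1149 ± 175 CPM in liver and 242 ± 47.1 CPM in eWAT (SD, n = 4), while Atp5b differed by a log2 value of 0.50, which turned to -0.50 with library totals. Of 33 cytosolic ribosomal protein genes, 28 were higher in liver and 0 in eWAT, with a median of 1.09. These medians fell to 0.14 and 0.09 with library totals, and the calls to 13 in liver against 6 in eWAT and to 8 against 8. In a joint list of fatty acid oxidation regulators and thermogenesis genes, 11 were tested, of which 7 were higher in liver and 4 in eWAT. Those in eWAT were the muscle and heart subunits Cox8b (-4.82) and Cox7a1 (-0.84), Ucp2 (-2.55) and the creatine kinase Ckb (-3.67). Dio1, the deiodinase of liver and kidney, was at 234 ± 39.9 CPM in liver and 0.0245 ± 0.0283 CPM in eWAT (SD, n = 4).

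**Figure D3:**
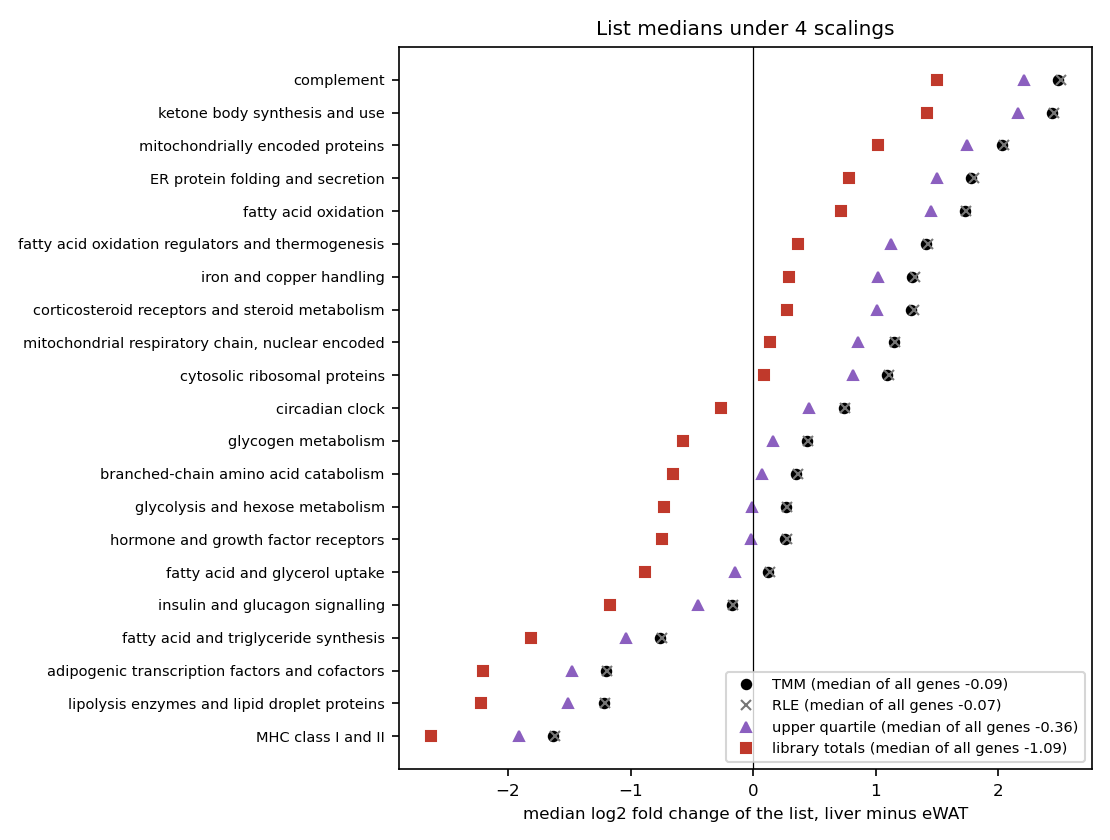
Median log2 difference (x axis, liver minus eWAT) of the lists other than cell type markers with a median within 3 of 0, under TMM, RLE, upper-quartile and library-total scaling, with the median of all genes for each scaling in the legend. Library totals shift every list shown to the left, and the circadian clock, glycogen, branched-chain amino acid, glycolysis, receptor and uptake lists cross 0.

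Members of one gene family were compared in 24 pairs. Each pair was chosen with a form expected in liver first and a form expected in fat second. The number that divided therefore does not measure how often gene families divide. Of all genes tested, 33.5% were higher in liver and 36.8% in eWAT. Both members passed the filter on low counts in 21 pairs. In 18 of these 21 the first was higher in liver and the second in eWAT. For fatty acid binding, Fabp1 made up 99.5% of the counts of Fabp1 and Fabp4 in liver and 0% in eWAT. Fabp4 was at 12406, 15315, 11893 and 10401 CPM in eWAT and 101, 45.4, 27.0 and 30.4 CPM in liver, a log2 difference of -7.94 (SE 0.49, adjusted p = 3.3e-08). For glycerol, the channel Aqp9 made up 100% of Aqp9 and Aqp7 counts in liver, to 3 digits, and 3.01% in eWAT. Of the droplet proteins Cideb and Cidec, Cideb made up 99.4% of counts in liver and 0.028% in eWAT.

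Pairs of glucose handling divided in the same way. The liver glucose transporter Slc2a2 was at 148, 162, 241 and 212 CPM in liver and 0.178 to 1.44 CPM in eWAT. The insulin-regulated transporter Slc2a4 was at 57.7, 43.8, 53.8 and 62.2 CPM in eWAT and 0 to 1.12 CPM in liver. Pklr made up 90.6% of pyruvate kinase counts in liver and 0.0412% in eWAT, the rest being Pkm. Glycogen synthase followed, with Gys2 at 98.1% of Gys2 and Gys1 counts in liver and 14.8% in eWAT.

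The exchange was not complete in every pair. The liver form of glycogen phosphorylase, Pygl, also led in eWAT, at 98.3% of Pygl and Pygm counts. The brain form Pygb, outside the pair, was at 162 ± 27.1 CPM in eWAT and 3.25 ± 0.891 CPM in liver (SD, n = 4). Pygm itself, called higher in eWAT, overlapped between groups. Scd1 and Scd2 were both higher in eWAT. Hmgcs1, of cholesterol synthesis, and Lpin1 did not pass, with overlapping groups and log2 differences of 0.09 (95% interval -0.73 to 0.92) and -0.76 (-2.18 to 0.66). With library totals Hmgcs1 and Lpin1 were called higher in eWAT (-0.95 and -1.81). The muscle subunit Cox7a1, also overlapping, was the minor form in both, Cox7a2 making up 98.1% of their counts in eWAT and 99.7% in liver. Cpt1b, the muscle carnitine palmitoyltransferase, was listed at 0 in all 8 libraries.

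**Figure D4:**
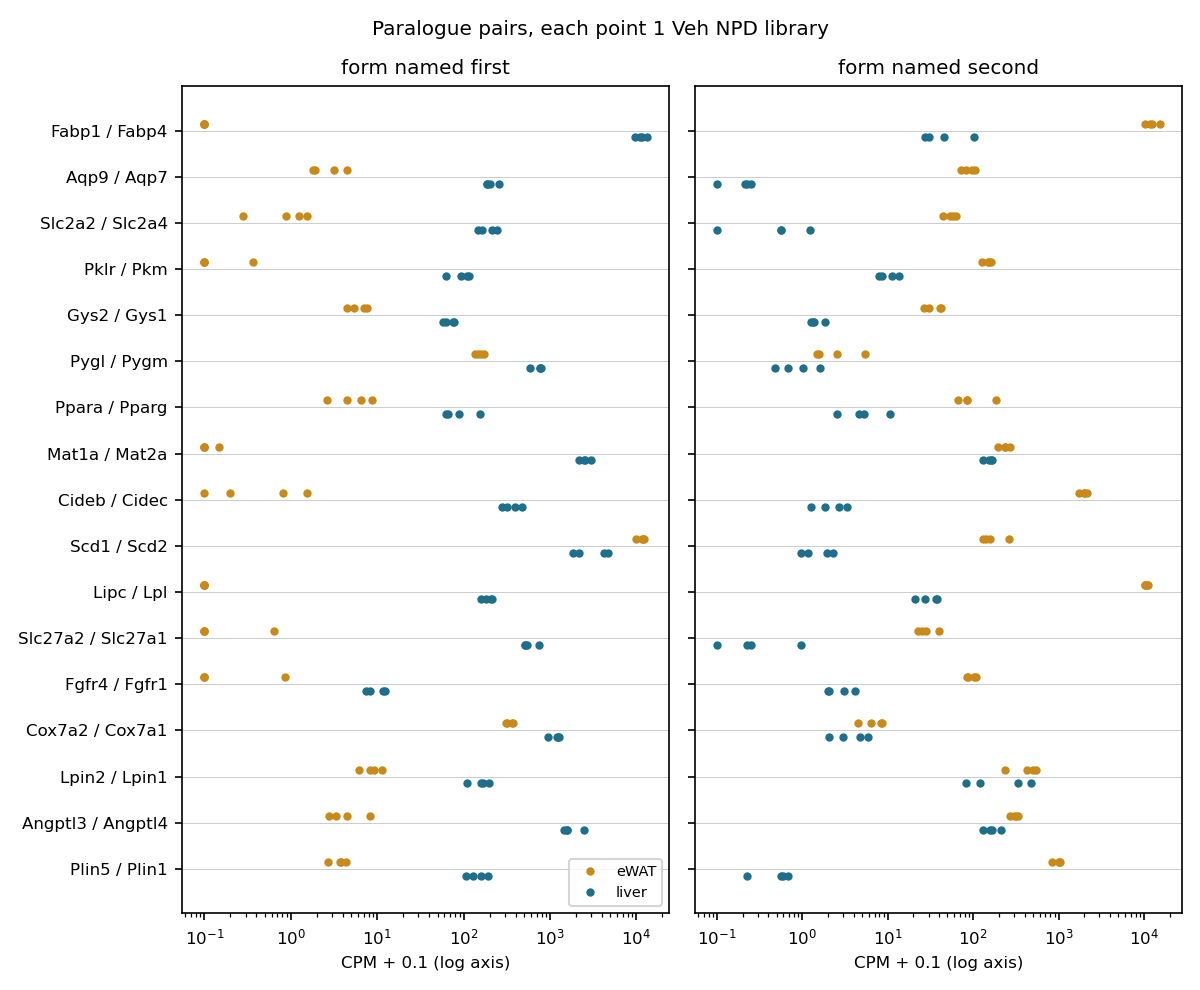
CPM + 0.1 (x axis, log scale) in each of the 4 Veh NPD eWAT libraries (ochre) and 4 Veh NPD liver libraries (blue) for 17 of the pairs with both members tested, the first member in the left panel and the second in the right. In 15 pairs the blue points lie to the right on the left panel and the ochre points to the right on the right panel, with overlap for Pygm and Cox7a1.

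Across the whole lists, glycolysis and hexose metabolism had 13 of 27 genes higher in liver, 9 in eWAT and 5 not called. The shares over all genes tested were 33.5% higher in liver and 36.8% in eWAT. Fructokinase (Khk) was at 463 ± 99.6 CPM in liver and 5.40 ± 1.94 CPM in eWAT (SD, n = 4). G6pdx, which makes NADPH for lipid synthesis, was at 75.4 ± 9.93 CPM in eWAT and 3.21 ± 1.47 CPM in liver (SD, n = 4). Glycogen metabolism had 8 of 15 genes higher in liver and 6 in eWAT, the former including Ppp1r3b, the subunit that targets phosphatase to glycogen, at 222 ± 48.5 against 1.22 ± 0.552 CPM (SD, n = 4). Both lists turned with library totals, to medians of -0.73 and -0.57.

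Hepatocyte transcription factors were mostly higher in liver, while the adipogenic list was mixed. Of 23 hepatocyte factors, 21 were higher in liver and Tcf7l2 (-0.89) was higher in eWAT. Hnf4a was at 461, 613, 503 and 459 CPM in liver, and in eWAT at 2.26 CPM in replicate 2 and 0 in the other 3. Creb3l3 and Prox1 had log2 differences of 9.78 and 6.84. Of 22 adipogenic factors and cofactors, 13 were higher in eWAT and 7 in liver, where 36.8% and 33.5% of all genes tested were. The sums of this list overlapped, at 1374 to 1508 CPM in eWAT and 1183 to 1386 CPM in liver. Pparg, which drives adipocyte differentiation, was at 65.6, 184, 84.9 and 84.0 CPM in eWAT and 2.43 to 10.4 CPM in liver. Ebf1 was at 290 ± 25.9 CPM in eWAT and 0.908 ± 0.428 CPM in liver (SD, n = 4). Ppara, the fasting receptor of liver, was at 66.6, 89.2, 154 and 62.2 CPM in liver and 2.53 to 8.58 CPM in eWAT. The 7 adipogenic genes higher in liver included Rxra (1.64), Nr1h3 (1.32), Klf15 (1.98) and Cebpb (3.52). Cebpa, listed for both cells, was at 368 to 457 CPM in liver and 231 to 294 CPM in eWAT, and its log2 difference of 0.67 turned to -0.34 with library totals.

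Hormone response genes differed in both directions. Of 15 adrenergic genes tested, 11 were higher in eWAT and 1 in liver. Adrb3, the beta-3 receptor that starts lipolysis, was at 541, 488, 524 and 404 CPM in eWAT and 2.11 to 6.13 CPM in liver. Adra1b, the receptor through which catecholamines act on the hepatocyte, was at 90.0 ± 15.9 CPM in liver and 2.90 ± 2.01 CPM in eWAT (SD, n = 4). The glucagon receptor Gcgr was at 89.2, 90.4, 81.2 and 74.5 CPM in liver and 0.216 to 0.622 CPM in eWAT, a log2 difference of 7.72 (SE 0.24, adjusted p = 5.2e-14). Of 19 insulin and glucagon signalling genes tested, 6 were higher in liver, 9 in eWAT and 4 did not pass. Over all genes tested, 33.5% were higher in liver and 36.8% in eWAT. Downstream of insulin, the phosphodiesterase Pde3b (-1.99) and the kinase subunit Pik3r1 (-1.84) were higher in eWAT. The insulin receptor Insr and its substrate Irs1 did not pass, with 95% intervals of the log2 difference from -0.07 to 0.59 and from -0.38 to 0.45. With library totals both were called higher in eWAT (-0.74 and -0.95).

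Steroid handling is of interest because the series tests corticosterone. The glucocorticoid receptor Nr3c1 (ENSMUSG00000024431) was at 85.3, 95.2, 112 and 87.2 CPM in eWAT and 61.7, 57.9, 61.7 and 77.5 CPM in liver. The groups did not overlap, with a log2 difference of -0.55 (SE 0.14, adjusted p = 0.0024). Hsd11b1, which regenerates active glucocorticoid within cells, was at 710, 757, 616 and 860 CPM in liver and 119, 141, 97.9 and 110 CPM in eWAT, a log2 difference of 2.65 (SE 0.17, adjusted p = 3.3e-10). H6pd, which supplies its cofactor, differed by 0.63 and turned to -0.37 with library totals. Akr1c6, a hydroxysteroid dehydrogenase, was at 1952 CPM in liver with no count in eWAT.

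Of 23 genes tested in a list of other hormone and growth factor receptors, 10 were higher in liver and 9 in eWAT, where 33.5% and 36.8% of all genes tested were. With library totals the list turned, to 5 higher in liver and 14 in eWAT, its median moving from 0.26 to -0.74. Asgr1, which is in the list though not a hormone or growth factor receptor, was at 1706 CPM in liver with no count in eWAT. It encodes a part of the asialoglycoprotein receptor. Egfr had a log2 difference of 2.59. In eWAT, Acvr1c, an activin receptor of adipocytes, was at 244 ± 22.2 CPM against 0.0868 ± 0.174 CPM in liver (SD, n = 4), and Tshr at 67.0 to 82.8 CPM with no count in liver. Of the receptors for fibroblast growth factors, Fgfr4 was at 9.85 CPM in liver and 0.189 CPM in eWAT, and Fgfr1 at 2.72 and 95.5 CPM. The hormone Fgf21, which acts through Fgfr1 and a co-receptor, was low, at 3.47 to 8.29 CPM in liver and 0 to 0.593 CPM in eWAT.

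Matrix genes were mostly higher in eWAT. Of 26 extracellular matrix genes, 23 were higher in eWAT, all by more than 2-fold, with a median of -5.31. Sparc was at 3713 ± 618 CPM in eWAT and 65.6 ± 15.4 CPM in liver, and the collagen Col3a1 at 772 ± 225 and 17.3 ± 2.98 CPM (SD, n = 4). The 3 higher in liver were vitronectin (Vtn, 6.84), Col18a1 (2.37) and fibronectin (Fn1, 0.61), of which Vtn and Fn1 are also plasma proteins. Fn1 turned with library totals. Of 12 genes of antigen presentation tested, 8 were higher in eWAT and 2 in liver, while their sums overlapped, at 6110 to 8455 CPM in eWAT and 7997 to 9962 CPM in liver. Those in liver were of class I, H2-K1 (1.5) and H2-Q10 (7.11), the latter a secreted form made by liver. The class II genes H2-Aa, H2-Ab1, H2-Eb1 and Cd74 were higher in eWAT, with H2-Ab1 at 266 ± 20.7 against 55.0 ± 25.9 CPM (SD, n = 4). Genes of the class I family share sequence, and reads could be split between them.

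Iron genes and clock genes leaned to liver on the TMM scale. Of 16 iron and copper genes tested, 10 were higher in liver and 2 in eWAT. Hepcidin (Hamp), the hormone that limits iron export, was at 1115 ± 434 CPM in liver (SD, n = 4) and had 1 count in all of eWAT. Heph, the copper oxidase that works with iron export, was at 55.6 ± 5.18 CPM in eWAT and 1.0 ± 0.499 CPM in liver (SD, n = 4). Of 18 clock genes tested, 9 were higher in liver, 3 in eWAT and 6 did not pass, against 33.5% and 36.8% of all genes tested. Hlf (3.01) and Nr1d2 (2.03) were higher in liver and Per3 (-2.32), Per1 (-1.40) and Cry2 (-0.84) in eWAT, Per1 with overlapping groups. With library totals the clock list turned, to 5 higher in liver and 7 in eWAT.

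Markers of minor cell types also differed. Kupffer cells, the macrophages of liver, were represented by Clec4f, at 65.8 to 70.5 CPM in liver with no count in eWAT, and Cd5l, at 128 ± 32.9 against 0.621 ± 0.160 CPM (SD, n = 4). Of the 8 Kupffer markers 6 were higher in liver, and Cd163 and Folr2 were higher in eWAT, which resident macrophages of many tissues express. Of 10 markers of macrophages of fat, 9 were higher in eWAT, among them Retnla at 777 to 1041 CPM against 0 to 0.617 CPM in liver. Retnla is also listed among the adipocyte secreted proteins. Of 11 shared macrophage markers, 7 were higher in eWAT and 1 in liver. Their sum was 962 to 1090 CPM in eWAT and 511 to 726 CPM in liver.

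Endothelial genes differed by vessel type. Of 9 markers of liver sinusoids, 7 were higher in liver, with Clec4g at 101 ± 11.2 CPM in liver and 0.0726 ± 0.145 CPM in eWAT (SD, n = 4). Kdr and Stab1 of that list were higher in eWAT. All 6 markers of capillaries of fat were higher in eWAT, among them Rgcc at 245 ± 37.3 against 0.0621 ± 0.124 CPM (SD, n = 4). Gpihbp1, which holds lipoprotein lipase on the capillary wall, had a log2 difference of -2.72. Of 9 general endothelial markers, 8 were higher in eWAT, with a sum of 373 to 666 CPM against 101 to 134 CPM in liver.

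Mesenchymal markers differed in both directions. Of 9 hepatic stellate cell markers, 5 were higher in liver, 2 in eWAT and 2 did not pass, and their sums overlapped, at 179 to 213 CPM in liver and 198 to 296 CPM in eWAT. Among them Lrat, which stores vitamin A as an ester, was at 19.4 ± 3.43 CPM in liver and 0.0372 ± 0.0744 CPM in eWAT (SD, n = 4). Of 11 adipose progenitor markers, 10 were higher in eWAT, with a sum of 5134 to 6886 CPM against 555 to 703 CPM. The exception Dpp4, at 130 ± 43.3 CPM in liver and 16 ± 1.09 CPM in eWAT (SD, n = 4), is also known from the bile canaliculus of the hepatocyte. Of 9 mesothelial markers, 8 were higher in eWAT, with sums that overlapped (122 to 234 CPM in eWAT and 106 to 157 CPM in liver), and Krt18, a keratin that hepatocytes also contain, was higher in liver (5.61). All 7 smooth muscle markers were higher in eWAT. Cholangiocyte markers were divided, with Spp1 higher in liver (6.79), and Krt19 (-3.96), which mesothelium also has, higher in eWAT.

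**Figure D5:**
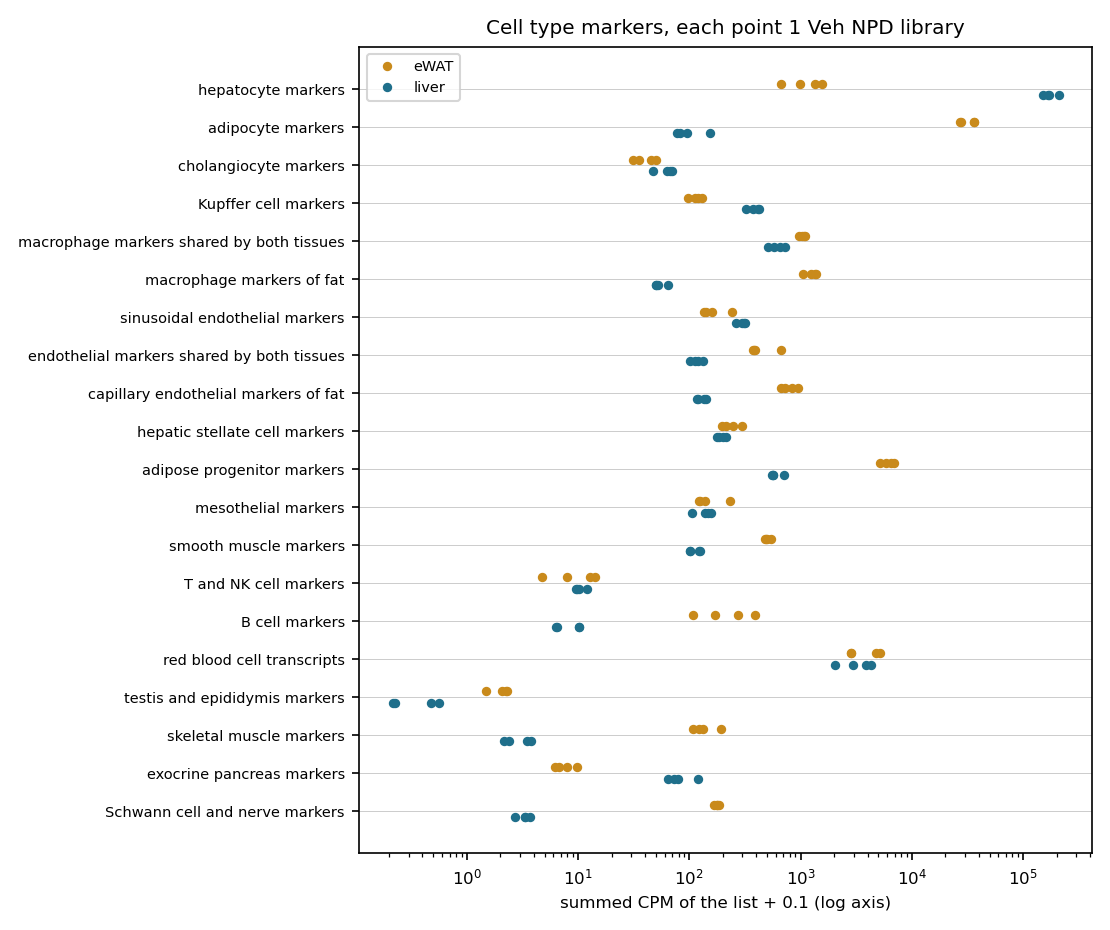
Summed CPM + 0.1 (x axis, log scale) of 20 lists of cell type markers, each point 1 Veh NPD library, ochre for eWAT and blue for liver. Hepatocyte markers lie at 151321 to 208798 in liver and 661 to 1565 in eWAT, adipocyte markers at 27075 to 36145 in eWAT and 77.9 to 153 in liver.

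Markers of blood cells, lymphocytes, muscle, nerve and other tissues were also looked up, and the source of these transcripts was not tested. Haemoglobin did not separate the groups, with red blood cell transcripts at 2813 to 5154 CPM in eWAT and 2039 to 4329 CPM in liver, although Alas2, of heme synthesis in red cells, was higher in liver (2.78). B cell markers summed to 107 to 389 CPM in eWAT and 6.21 to 10.2 CPM in liver, nearly all from Ighm, the heavy chain of IgM, at 166, 104, 245 and 383 CPM in the eWAT libraries. Skeletal muscle markers summed to 107 to 191 CPM in eWAT, from Acta1 and Myl1 above all, and to 2.08 to 3.70 CPM in liver. Schwann cell markers summed to 166 to 186 CPM in eWAT, where the sodium channel Scn7a was at 158 ± 10.2 CPM (SD, n = 4), and 2.62 to 3.57 CPM in liver. T and NK cell markers were low in both, at 4.67 to 14.0 and 9.56 to 12 CPM, and those of testis and epididymis were at 1.38 to 2.18 CPM in eWAT. Exocrine pancreas markers reached 63.6 to 119 CPM in liver, most of it Cela1, and of the 10 genes of that list only 1 passed the filter on low counts.

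The insulin genes were found in all 4 eWAT libraries. Ins2 was at 5.69, 119, 15.6 and 40.0 CPM in eWAT replicates 1 to 4 and 0.128 to 1.86 CPM in liver. Ins1 was at 4.40, 63.0, 9 and 19.5 CPM in eWAT and 0 to 0.621 CPM in liver. The levels in eWAT spread over more than 10-fold with replicate 2 highest in both, and both differences passed (log2 -6.11, adjusted p = 0.0071, and -6.89, adjusted p = 0.0042, by edgeR). Neither passed with limma voom. The cause was not tested.

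Outside the lists, the 10 genes with the smallest p in each direction were nearly undetected in the other tissue in several cases. In liver they included Apof, an apolipoprotein at 1338 ± 210 CPM, Gjb1, the gap junction protein connexin 32, at 724 ± 31.8 CPM, and the amino acid carrier Slc38a4 at 1276 ± 249 CPM (SD, n = 4). Apof had 1 count and Gjb1 2 counts in all 4 eWAT libraries. In eWAT they included Sncg, gamma-synuclein, at 794 ± 146 CPM, and Aoc3, an amine oxidase on adipocytes, at 707 ± 50.1 CPM (SD, n = 4), with 5 and 4 counts in all 4 liver libraries. Ccdc80 was at 1285 ± 59.0 CPM in eWAT and 9.94 ± 1.68 CPM in liver (SD, n = 4). The glutamine carrier Slc1a5 was at 856 ± 48.3 CPM in eWAT and 1.57 ± 0.838 CPM in liver (SD, n = 4). Hoxc8, a patterning gene, was at 158 ± 21.5 CPM in eWAT with 1 count in liver.

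The same comparison was available in 3 further sets of mice that share no library with these. Of the 9450 genes called here, 7619 (80.6%) were called in the same direction between liver and eWAT of Veh HPD mice and 4 in the opposite direction. The 7619 were 87.9% of all calls in that group. Without Veh HPD liver replicate 4, in which Elovl3 had 5 counts against up to 2556 in the other livers of its group, the number was 8036 (85.0%). In Cort NPD mice 7748 genes (82.0%) were called in the same direction and 44 in the opposite. In Cort HPD mice these were 7703 (81.5%) and 51, and 7765 (82.2%) without eWAT replicate 4. In that library the testis and epididymis markers summed to 8872 CPM of the library total, against 0.554 to 14.9 in the other 15 eWAT libraries. Of the genes called here, 6428 (68.0%) were called in the same direction in all 3 other sets.

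Of the 324 genes that could be named here by rule and were called, 273 were called in the same direction in all 3 other sets, and 6 were called in the opposite direction in at least 1. Cyp2e1 was higher in liver here (1.0) and higher in eWAT in Cort NPD (-0.65) and Cort HPD mice (-0.85). G0s2 was at 1.77 here and -1.14 in Cort HPD mice. The vessel-associated gene Rgs5 was at -1.40 here and 0.71 and 0.46 in the Cort sets. Cox7a1, at -0.84 here, was at 2.15 in Veh HPD and 2.84 in Cort HPD mice. C2 (0.36 in Cort NPD) and Lrp1 (-0.42 in Cort HPD) completed the 6. Whether these differences between sets were larger than their error was tested only for diet without Cort, where none of them passed.

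For diet, the tissue difference in Veh HPD mice was tested against that in Veh NPD mice in a fit of 16 libraries. Of 14979 genes, 1 passed (edgeR's quasi-likelihood test, adjusted p under 0.05), and 1398 had an unadjusted p under 0.05. The gene was Gapdh, of glycolysis, whose log2 difference between tissues was 0.76 on the NPD and 2.24 on the HPD, a change of 1.51 (SE 0.23, adjusted p = 0.042). Without Veh HPD liver replicate 4, 2 genes passed, Gapdh (1.53, adjusted p = 0.017) and Csad, of taurine synthesis (-2.42, adjusted p = 8.7e-06).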

How the data were processed

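RNA from liver and eWAT was sequenced with QuantSeq 3′ mRNA libraries, and the deposited table holds raw counts per Ensembl gene for 32 libraries, which the authors made from reads aligned to the mouse genome (GRCm38/mm10 in the submitters' processing notes). The aligner and the counting settings, strand included, are not given in the sources used here. The submitters' notes name R 4.0.3 and limma. Symbols and positions came from GENCODE M21 for 47224 of 47643 IDs.

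The 8 Veh NPD libraries were grouped by their labels. Genes with enough counts (filterByExpr of edgeR 4.0.16, minimum count 10 and minimum total count 15, in R 4.3.3) were fitted with TMM factors and edgeR's robust quasi-likelihood test, with Benjamini-Hochberg adjusted p under 0.05 as the threshold. Positive log2 differences are higher in liver. "Over 2-fold" is a test against a log2 difference of 1 (glmTreat). All adjusted p-values are over all genes tested. Floors are 3 counts per library and cover counting error only. Nothing in the labels says how the 4 samples of a group were collected beyond their number. The study's methods state that its work took several cohorts of mice, and the labels do not assign samples to cohorts. The p-values set the tissue difference against the spread between these samples, without a term for cohort. Counts of 13293 genes were also simulated, with a common dispersion and the same mean levels in both tissues except in 200 changed genes. Of these, 60% were recovered at a change of 1 log2 unit and 98% at 2 log2 units, with 2.44% and 3.45% false calls. In the data 70.3% of genes differed, so these rates cannot be carried over to the real comparison.

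The comparison, the 53 gene lists and the pairs were chosen with earlier results of these data known. Genes named were the 10 most abundant of each tissue, the pair members, up to 4 called genes of highest level per list and direction with members against the majority, the 10 of smallest p per direction outside the lists, and Nr3c1, Hsd11b1, Gcgr, Fgf21, Ins1 and Ins2. Glul, Lep, Insr, Irs1, Gapdh, Csad and the islet transcripts other than insulin were added after their values were seen. Promoters are from RefSeq (GRCm38.p6). Alternatives were RLE, upper-quartile and library-total scaling, no filter, DESeq2 1.42.0, limma voom 3.58.1, all 32 libraries, a replicate block and leaving out each library. Some genes are not reported here.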

Additional observations from a re-analysis of the deposited data

Results flagged for a closer look

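In 432 groups of 4 values (genes, list sums and library shares, by tissue), 28 had 1 library far from the other 3 by Dixon's criterion, and chance alone flags about 1 group in 20. No explanation was tested. Liver replicate 4 had 35% of its counts in its 10 most abundant genes, against 28.6% to 28.8% in the other livers. Its sums were also apart for glycolysis and hexose metabolism (7990 CPM), macrophage markers of fat (64.1 CPM) and adipose progenitor markers (703 CPM), as were its levels of Rarres2 (1273 CPM), Hsd17b13 (622 CPM), Asgr1 (2179 CPM) and Cd163 (16.9 CPM), all above the other livers.

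Liver replicate 3 was above the others for Trf (8344 CPM) and Col18a1 (349 CPM) and below them for Hsp90b1 (918 CPM) and Akr1c6 (1677 CPM). Liver replicate 2 was above the others for Klf15 (145 CPM) and below them for F3 (0.617 CPM), Ugt2b1 (1143 CPM), Pygl (580 CPM) and Tcf7l2 (32.7 CPM).

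In eWAT, replicate 1 was above the others for C3 (437 CPM), Plin2 (235 CPM), Nr1h3 (69.2 CPM), Cebpa (294 CPM) and the sum of mesothelial markers (234 CPM). Replicate 2 was above them for Pparg (184 CPM) and the sum of hormone and growth factor receptors (2550 CPM). Replicate 3 was above them for Kdr (183 CPM) and the shared endothelial markers (666 CPM), and below them for Aacs (32.8 CPM) and Scn7a (143 CPM).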

How the results depend on the processing

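Of 3072 values recomputed for 192 named genes, 3018 kept their direction and side of the threshold. Without a change of direction, 40 no longer passed and 3 newly passed, and 11 turned. All 11 turned with library totals: mt-Rnr2 (-0.92), Pck1 (-0.29), Lrp1 (-0.67), Atp5b (-0.50), Hmgcs1 (-0.95), Cebpa (-0.34), Insr (-0.74), Irs1 (-0.95), H6pd (-0.37), Fn1 (-0.39) and Gapdh (-0.25). Of these, mt-Rnr2, Hmgcs1, Insr and Irs1 had not passed on the TMM scale and were called higher in eWAT with library totals. Glul (-1.08) and Lpin1 (-1.81) also newly passed with library totals, without turning. Cyp2e1 (0.00), Hibadh (0.31), Agt (0.28), G0s2 (0.79) and Nr1h3 (0.32) no longer passed with them. With limma voom F3 (-1.91), Cox7a1 (-0.90), Pygm (-1.53), Ins2 (-5.82), Ins1 (-6.53) and Iapp (-5.42) no longer passed. Library totals also moved the calls to 2106 higher in liver and 8494 in eWAT, and those over 2-fold to 1315 and 5680. No other setting moved these counts by more than 1.5 times. Leaving out each library gave 4355 to 4562 higher in liver and 4803 to 5068 in eWAT. C1qc no longer passed without liver replicate 3 (-0.31), and Per1 without eWAT replicate 2 (-1.11) or 4 (-1.32) or liver replicate 3 (-1.30). Pygm was lost without eWAT replicate 3 (-1.04) or liver replicate 1 (-1.48) or 4 (-1.38). Cox7a1 was lost without eWAT replicate 2, 3 or 4 (-0.87, -0.73, -0.71) or liver replicate 1 or 3 (-0.60, -0.72). Lrp1 was lost without eWAT replicate 1, 3 or 4 (0.30, 0.34, 0.37) or liver replicate 1 or 3 (0.28, 0.30). Leaving out each library, the 10-gene share differed by 1.82 (without liver replicate 4) to 3.97 percentage points. Without the mitochondrially encoded genes it differed by -0.567 percentage points, and without Veh HPD liver replicate 4 the diet test called 2 genes. The cause was not tested.

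Same-numbered liver and eWAT libraries correlated at -0.00135 to 0.0401 in their deviations from the group means, so the numbers were not taken as pairing. With a replicate block, 4453 genes were higher in liver and 4805 in eWAT, Lpin1 newly passed (-1.03) and Lrp1 did not (0.32).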

Other observations

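Transcripts of other pancreatic islet hormones, looked up after the values of Ins1 and Ins2 were seen, followed the same order among the eWAT libraries. Gcg, which encodes glucagon, was at 0.400, 10.8, 1.89 and 3.87 CPM in eWAT replicates 1 to 4 and at 0 to 0.373 CPM in liver. Iapp, which encodes amylin, was at 0.711, 16.8, 2.47 and 7.64 CPM in eWAT and 0 to 0.124 CPM in liver. In the other 12 eWAT libraries of the series, Ins1 had 56 to 826 counts and Gcg 6 to 249. In the other 12 liver libraries Ins1 had 0 to 7 counts. The cause was not tested.

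Levels of hepatocyte transcripts in eWAT varied by gene. Alb was at 33.9 to 49.3 CPM in eWAT, while Fgg, Fga and Plg had no count there and Fgb had 5 counts in all 4 libraries.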
